A study of Mus musculus with 8 samples.

Results

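Cytosolic ribosomal protein genes encode the protein part of the ribosome, and 81 of them were listed among the 10690 genes of the deposited data. They were chosen by symbol, that is, symbols that begin with Rpl or Rps, continue with a protein number and have at most a short suffix, together with Rplp0, Rplp1, Rplp2 and Rpsa. The rule itself uses symbols only. Of the 84 protein-coding symbols in RefSeq that fit this pattern, 78 were listed, and Rpl10l, Rpl24, Rpl29, Rpl32l, Rpl3l and Rpl41 were not. The other 3 genes are Rpl6l, Rps12l1 and Rps3a3, whose symbols are not those of protein-coding genes in RefSeq. The same 81 genes were listed in all 3 comparisons.

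The cells were NIH3T3, an established line of mouse embryonic fibroblasts, and carried no engineered allele that the sample labels mention. Nontreated cells (NT) were compared with cells kept in 250 µM sodium arsenite for 1 h (AS), and with cells that were then washed and kept in regular medium for another 4 h (RC4) or for 8 h (RC8). Each condition had 1 library of QuantSeq FWD, a kit that primes on poly(A) tails and sequences toward them, so that each read lies near a cleavage and polyadenylation site (PAS). With 1 library per condition, no test between conditions was possible and no P value is given. The errors and 95% intervals below cover the counting of reads only, and since no molecular identifiers were used, PCR copies are counted as well. All 3 comparisons share the NT library.

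The libraries held 22.4 M to 23.0 M reads on genes each. All 10 fibroblast markers searched for were listed, and their summed level was 15162 RPM (reads scaled to 1 M reads on genes) in NT, 15772 in AS, 12018 at RC4 and 9115 at RC8. Whether this change of the fibroblast markers bears on the values below was not tested. None of 5 epithelial, 3 endothelial and 3 blood cell markers was listed. Of 16 arsenite-inducible genes, 12 were listed, with a summed level of 3370 RPM in NT, 5817 in AS, 21478 at RC4 and 7120 at RC8. The inducible genes were therefore highest in the RC4 library. In these bulk libraries, a change in RNA per cell and a change in the number of cells that express a gene cannot be told apart.

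A ribosome has a small subunit, which binds mRNA, and a large subunit, which joins amino acids, and each holds 1 copy of nearly every ribosomal protein. The stalk proteins Rplp0, Rplp1 and Rplp2 of the large subunit recruit the translation factors. In mammals, ribosomal protein mRNAs typically begin with a terminal oligopyrimidine (TOP) tract, which is a C followed by a run of C and T, and mTOR signaling controls their translation through it. Arsenite is an oxidative stressor that blocks translation initiation and brings many mRNAs into stress granules. Many ribosomal protein genes host small nucleolar RNAs in their introns, and most have processed pseudogenes, which are copies of the mRNA elsewhere in the genome.

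The TOP tract is a feature that was not used to choose the genes. Of the 81 genes, 59 had a promoter entry in RefSeq (GRCm38.p6). A C at the listed start followed by at least 4 pyrimidines was found for 13 of these 59 genes (22.0%), compared with 3.01% of all 27025 genes with an entry and 2.84% of the other genes of the tables. When the tract was allowed to begin within 10 nt of the listed start, 62.7% of the ribosomal protein genes and 34.4% of all genes had it. The start sites of 4 genes are shown to make the tract visible, with 10 bases before the start, 20 bases from it and the pyrimidine run in capitals.
Rps6, chr4:86857348-86857377, minus strand: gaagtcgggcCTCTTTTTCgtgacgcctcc
Rpl15, chr14:18270967-18270996, minus strand: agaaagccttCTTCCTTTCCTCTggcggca
Rps10, chr17:27635225-27635254, minus strand: gcgcacgcccCTTCCTTTCCagcctccgcc
Rps27, chr3:90213629-90213658, minus strand: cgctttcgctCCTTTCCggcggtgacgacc
The run was 9 nt long in Rps6, 13 nt in Rpl15, 10 nt in Rps10 and 7 nt in Rps27.

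Other promoter letters were searched for on both strands from 250 bases before to 50 bases after the start. CCGGAA, the core letters bound by ETS factors, was found for 57.6% of the ribosomal protein genes, 34.1% of the other genes of the tables and 16.7% of all genes. AAGATGG, the core letters of YY1 sites, was found for 16.9%, 9.22% and 7.28%, respectively. TATAAA was found for 11.9%, 8.12% and 15.7%, and GGGCGG, the letters of a GC box, for 62.7%, 72.3% and 38.2%. These are matches of letters in a window and do not show that a factor was bound.

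The genes together made up 5.19% of the reads on genes in NT (95% interval 5.18% to 5.20%) and 5.55% in AS (5.54% to 5.56%). Their share was 5.48% at RC4 and 4.91% at RC8, where the NT library measured with the same genes gave 5.22% and 5.21%. The share was thus highest right after arsenite and lowest at 8 h of recovery. The intervals of the AS and RC4 libraries did not overlap those of NT, and neither did that of RC8, but the spread between cultures is unknown.

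To describe single genes, the log2 ratio of reads in the treated library over NT was taken and the value of the median gene of the same comparison was subtracted. On this scale, the median over the 81 genes was 0.12 in AS, 0.36 at RC4 and −0.12 at RC8. The choice of scale matters in RC4. Because the median gene itself was at −0.30 in log2 RPM in RC4, the same 81 genes had a median of only 0.06 in RPM there. With the TMM factors of edgeR, which left the median gene of RC4 at −0.01, the median of the 81 genes was 0.35. In AS and RC8, the median gene was at −0.04 and 0.01 in log2 RPM, and the ribosomal protein genes had medians of 0.08 and −0.11. Relative to the median gene, 65 of the 81 genes were above 0 in AS, 78 at RC4 and 25 at RC8.

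**Figure D1:**
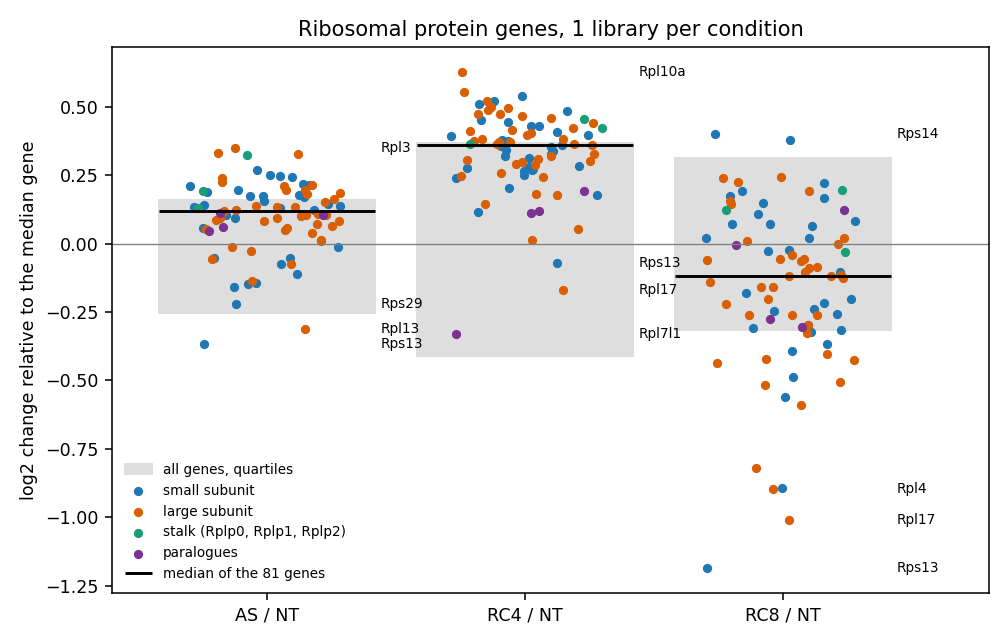
Log2 change relative to the median gene (y axis) of each of the 81 ribosomal protein genes (points, colored by subunit) in AS, RC4 and RC8 over NT (x axis), 1 library per condition. Black lines are medians over the 81 genes (0.12, 0.36 and −0.12), gray boxes span the quartiles of all genes, and names beside a column mark the 3 lowest genes and the highest one.

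The ribosomal protein genes lay close together. In AS, their quartiles were 0.05 and 0.18, a width of 0.133, compared with a width of 0.414 over all genes. The quartiles of 35 proteasome genes in AS, 0.04 and 0.18, were similarly close. In RC4, the width was 0.154 for the ribosomal protein genes and 0.778 for all genes. In RC8, the width was 0.367 and 0.627, respectively, so the ribosomal protein genes were more spread at 8 h of recovery than in AS or RC4. The ribosomal protein genes had more reads than most genes, with a median of 9425 in NT compared with 736 over all genes of the AS comparison. The median counting error of a log2 change was 0.02 for them in each comparison and 0.08 for all genes.

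Few of the genes passed a fold of 1.5 relative to the median gene. In AS, none of the 81 genes was higher or lower by that fold, whereas 2.07% of all genes were higher and 10.2% were lower. This was not particular to them, since none of 77 mitochondrial ribosomal, 44 ribosome biogenesis and 35 proteasome genes passed it in AS either. In RC4, Rpl10a was the only gene that was higher and no gene was lower, compared with 15.0% and 17.4% of all genes. In RC8, no gene was higher and 6 genes were lower (7.41%), compared with 11.1% and 12.1% of all genes. The share of genes past 1.5-fold was therefore below that of all genes in every comparison and direction.

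At a lower threshold, a log2 change of 0.32 in either direction relative to the median gene, RC4 was different. Here 47 of the 81 genes (58.0%) were higher, compared with 28.1% of all genes, and only Rpl7l1 was lower, compared with 29.5%. This count depends on the scale. In RPM, 1 gene (Rpl10a) was higher by this much in RC4, compared with 13.8% of all genes, and 3 genes were lower, compared with 48.7%. In AS, 4 genes were higher and 1 was lower, compared with 8.80% and 20.7% of all genes. In RC8, 2 genes were higher and 18 genes (22.2%) were lower, compared with 24.4% of all genes in each direction.

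The 6 genes that were lower by at least 1.5-fold in RC8 came from both subunits. Rpl4, a large-subunit protein that reaches into the exit tunnel of the nascent peptide, had 1550.0 RPM in NT, 1521 in AS, 1778 at RC4 and 836 at RC8. Its level was close to NT in AS, highest in RC4 and lowest in RC8, and its log2 change relative to the median gene was 0.01, 0.50 and −0.90 in this order. Rps24, a small-subunit protein mutated in some patients with Diamond-Blackfan anemia, had 773 RPM in NT, 673 in AS, 680 at RC4 and 418 at RC8. Its level in RC8 was the lowest of the 4 libraries, with a log2 change relative to the median gene of −0.89 ± 0.02 (counting error), or 1.86-fold lower.

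Rpl17, which lies at the rim of the exit tunnel, had 151 RPM in NT, 139 in AS, 109 at RC4 and 75.1 at RC8. Unlike most of the genes, Rpl17 was below NT relative to the median gene in all 3 comparisons, with −0.07 in AS, −0.17 in RC4 and −1.01 ± 0.04 in RC8. Rpl11, which forms a particle with Rpl5 and 5S rRNA that can bind Mdm2, had 75.4, 76.3, 61.8 and 42.9 RPM in NT, AS, RC4 and RC8. Its partner Rpl5 had 852, 881, 961 and 714 RPM in the same order. Both were lowest in RC8, where the log2 change relative to the median gene was −0.82 ± 0.06 for Rpl11 and −0.26 ± 0.02 for Rpl5.

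Rpl13, another large-subunit protein, had 357 RPM in NT, 279 in AS, 353 at RC4 and 238 at RC8. It was low in AS, near NT in RC4 and lowest in RC8, with log2 changes relative to the median gene of −0.31, 0.29 and −0.59. Rps13, a small-subunit protein, had the lowest values of the 81 genes in AS (−0.37 ± 0.12) and in RC8 (−1.19 ± 0.14). It was measured with only 323 reads in NT, 242 in AS, 253 at RC4 and 145 at RC8, and has 5 near-identical copies of its 3′ end elsewhere in the genome. No such copy was found for Rpl4, Rps24 and Rpl11, whereas Rpl17 has 1 and Rpl13 has 7. The search used annotated transcript ends, and many reads of Rps24 and Rpl11 are at PASs away from these ends.

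At the other end in RC8 were Rps14 and Rpsa, the only 2 genes that were higher by at least 0.32 on the log2 scale. Rps14, a small-subunit protein known from the 5q- syndrome, had 1066 RPM in NT, 1248 in AS, 1183 at RC4 and 1414 at RC8. Rpsa, a small-subunit protein also known as the laminin receptor, had 1506, 1733, 1567 and 1968 RPM in the same order. Both genes were above NT in all 3 comparisons, and in both the RC8 library was the highest of the 4. Their log2 changes relative to the median gene in RC8 were 0.40 ± 0.01 and 0.38 ± 0.01. Rpl36, Rpl3, which lies near the peptidyl transferase center, and Rpl7 followed with 0.24, 0.24 and 0.23.

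**Figure D2:**
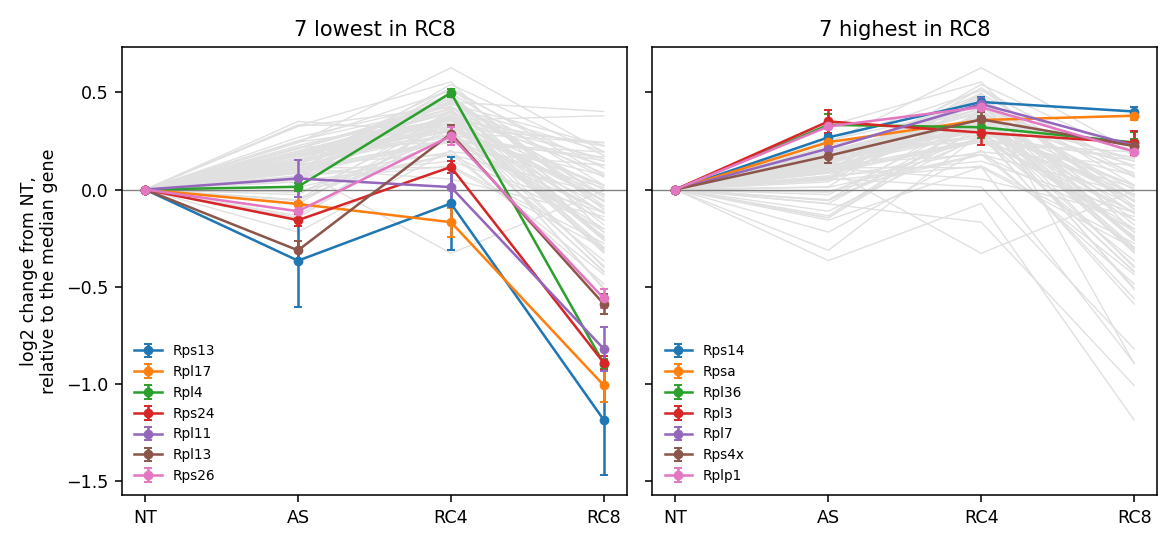
Log2 change from NT relative to the median gene (y axis) in NT (set to 0), AS, RC4 and RC8 (x axis) for the 7 ribosomal protein genes with the lowest (left) and highest (right) values in RC8, 1 library per condition. Bars are 95% counting intervals and gray lines are all 81 genes. Most lines peak in RC4, and 6 genes lie between −1.19 and −0.59 in RC8.

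The highest genes in AS were Rpl3 (0.35), Rpl36 (0.33), Rpl28 (0.33), Rplp1 (0.32) and Rps14 (0.27), and the first 4 of these were the genes past 0.32. Rpl28 is among the 4 genes with fewer than 1000 reads in NT (235 reads), and its counting error was 0.13. The lowest genes in AS after Rps13 and Rpl13 included Rps29 (−0.22) and Rps24 (−0.16). In RC4, the highest genes were Rpl10a (0.63), Rpl28 (0.55), Rps27 (0.54), Rps10 (0.52) and Rpl19 (0.52). Rpl10a had 714 RPM in NT, 820 in AS, 896 at RC4 and 820 at RC8, so that all 3 treated libraries were above NT and RC4 was the highest. The lowest genes in RC4 were Rpl7l1 (−0.33), Rpl17 (−0.17), Rps13 (−0.07), Rpl11 (0.01) and Rpl15 (0.05).

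The subunits were alike in their medians. The 33 small-subunit genes had medians of 0.14 in AS, 0.34 at RC4 and −0.10 at RC8, and the 41 large-subunit genes had 0.10, 0.37 and −0.12. The 3 stalk genes were at 0.13 to 0.32 in AS, 0.36 to 0.45 in RC4 and −0.03 to 0.20 in RC8. Rplp1 had 3060 RPM in NT, 3726 in AS, 3336 at RC4 and 3519 at RC8, all 3 treated libraries being above NT. Rplp0, which anchors the stalk, had 1104, 1174, 1228 and 1086 RPM, and its RC8 library was slightly below NT.

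Some of the genes encode proteins that are known for other roles as well. Rps6, the small-subunit protein phosphorylated by the S6 kinases, had 414 RPM in NT, 442 in AS, 427 at RC4 and 317 at RC8. Rpl13a, which also acts as a repressor of translation in the GAIT complex, had 1943, 2027, 2058 and 1476 RPM. Both were lowest in RC8 and above NT in AS and RC4, and their log2 changes relative to the median gene in RC8 were −0.39 and −0.40. Rps27a, which is made as a fusion with ubiquitin, was at 0.21 in AS, 0.43 at RC4 and −0.25 at RC8. Rps3, which lines the mRNA entry channel, was at 0.20, 0.39 and 0.08 and thus stayed above 0 in RC8.

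Each of 4 paralogues was below its own main gene in RC4. Only Rpl7l1 was outside the range of the main genes, of which Rpl17 was the lowest at −0.17. Rpl7l1, a nucleolar relative of Rpl7, had 99.1 RPM in NT, 104 in AS, 64.1 at RC4 and 99.1 at RC8. It was low in RC4 only, at −0.33 ± 0.05 relative to the median gene, where Rpl7 itself was at 0.44. Rpl22l1 was at 0.11 in RC4, compared with 0.26 for Rpl22, and Rpl39l was at 0.19, compared with 0.41 for Rpl39. Rps27l, whose gene is a target of p53, was at 0.12 in RC4, compared with 0.54 for Rps27. In RPM, all 4 paralogues were below NT in RC4, with a median of −0.19, but so were 28 of all 81 genes. In RC8, Rpl22l1 and Rps27l were at −0.30 and −0.28, Rpl7l1 at −0.01 and Rpl39l at 0.13.

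Ribosomal proteins with other symbols were compared as well. Rack1, a scaffold protein on the head of the small subunit, was at 0.22 in AS, 0.48 at RC4 and 0.28 at RC8. Fau, whose product is cleaved into a ubiquitin-like protein and Rps30, was at 0.18, 0.45 and 0.20. Both genes were above 0 in RC8. Rpl36al, a close copy of Rpl36a, was at −0.06, 0.13 and −0.59, and Rpl36a was at 0.20, 0.37 and −0.30.

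Other gene groups showed how far this pattern was shared. The 16 other TOP mRNAs listed are mostly those of elongation factors, subunits of eIF3 and other proteins, but also include noncoding RNAs. They had medians of 0.13 in AS, 0.32 at RC4 and −0.24 at RC8, and all 16 were above 0 in RC4. Eef1a1, Eef2 and Eef1b2 were at 0.50, 0.46 and 0.38 in RC4 and at 0.05, 0.05 and −0.26 in RC8. Among these 16 genes, Snhg1, a noncoding host of small nucleolar RNAs, was the only one past 1.5-fold in AS, at 0.91. Eif3e and Eef1d were past 1.5-fold in the lower direction in RC8, at −0.81 and −0.69.

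Genes for mitochondrial ribosomal proteins, which serve a separate ribosome, had a similar median in AS (0.12 over 77 genes) but not in RC4 (−0.10 over 76 genes). In RC8, their median was −0.01. The 44 genes for ribosome biogenesis factors had medians of 0.04, −0.10 and 0.05. The 35 proteasome genes had medians of 0.10 in AS, 0.40 at RC4 and 0.31 at RC8, with 34.3% and 17.1% of them higher by at least 1.5-fold in RC4 and RC8. The difference between these groups and the ribosomal protein genes was not tested.

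**Figure D3:**
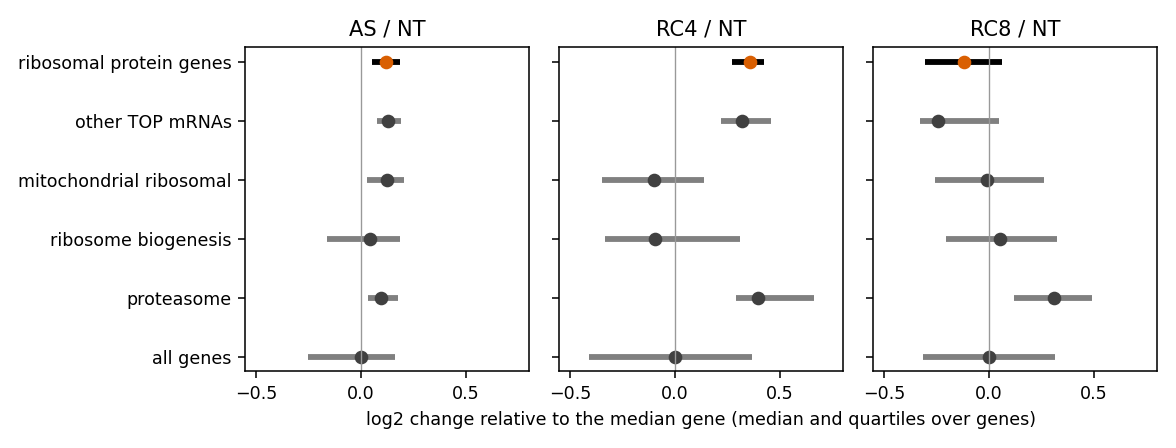
Median (points) and quartiles (bars) over genes of the log2 change relative to the median gene (x axis) for gene groups (y axis) in AS, RC4 and RC8 over NT, 1 library per condition. The ribosomal protein genes (orange point) and the other TOP mRNAs were at 0.36 and 0.32 in RC4 and below 0 in RC8, whereas the proteasome genes were above 0 in each panel.

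Features of the genes were set beside their levels. The 29 genes that hold a small nucleolar RNA in the GENCODE vM1 annotation had a median of −0.20 in RC8, and the 48 genes without one had −0.11. Of the 6 genes lower by 1.5-fold in RC8, Rpl4, Rpl13, Rpl17 and Rps13 are such hosts, and Rpl11 and Rps24 are not. These are 13.8% of the hosts and 4.17% of the genes without one, compared with 12.1% of all genes, so the hosts were near the share of all genes. The medians in RC4 were 0.35 and 0.36. The 13 genes with a TOP tract exactly at the listed start had a median of −0.06 in RC8 and the other 46 genes with a promoter entry had −0.19, and in RC4 both were at 0.36.

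Reads of a gene with near-identical copies may be split or lost in mapping, and levels of such genes are uncertain. A copy was counted where at least 90% of the last 150 nt of the transcript matched elsewhere in the genome at 95% identity or more. Of 77 genes searched, 50 had at least 1 copy, up to 53 for Rpl21. The 4 genes not searched, Rpl6l, Rps12l1, Rps3a1 and Rps3a3, have no entry in GENCODE vM1. They had 12865, 12555, 7379 and 6482 reads in NT, and whether these reads belong to related genes was not tested. Read numbers are given here as counted near 3′ ends, not divided by length. In NT, the genes without a copy ranged from 75.4 to 2012 RPM with a median of 726, and those with copies from 5.14 to 3060 with a median of 406. All 5 genes below 50 RPM, Rpl28, Rpl34, Rps13, Rps23 and Rps27, were in the second group. Genes without a copy had medians of 0.09, 0.36 and −0.16 in AS, RC4 and RC8, and genes with copies had 0.13, 0.35 and −0.12. The end searched was that of an annotated transcript, which for some genes, such as Rps20, is not where the reads lie. Whether copies affect the changes was therefore not tested.

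Read numbers of a gene also depended on the PASs that the authors' software listed for it. For Rps9 and Rps28, the NT library had 51531 and 18168 reads in the AS comparison but 57089 and 15858 in the RC8 comparison. In the other 79 genes, the NT reads differed by at most 0.29% between the 3 comparisons.

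More than 1 PAS was listed for 46 of the 81 genes in AS, 45 at RC4 and 46 at RC8, and at most 5 PASs were listed for 1 gene. With all listed PASs counted, the share of a gene's reads at each PAS typically changed less for these genes than for all genes. The median of the largest change in a share was 2.08 percentage points in AS, 3.40 at RC4 and 4.67 at RC8, compared with 4.20, 6.20 and 6.0 over all genes with more than 1 PAS. A change of at least 10 points was seen in 4 genes in AS, compared with 15.3% of all genes, in 2 genes in RC4, compared with 29.1%, and in 8 genes in RC8, compared with 27.0%. The 4 genes in AS are 8.70% of those with more than 1 PAS and the 8 genes in RC8 are 17.4%. A change of at least 5 points was seen in 10 genes in AS, compared with 42.6% of all genes, in 15 genes in RC4, compared with 59.2%, and in 21 genes in RC8, compared with 58.0%.

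Rpl15, a large-subunit protein, had the largest change of all, 28.1 points in RC8, and was the only gene with a change of at least 10 points in all 3 comparisons. It has 4 PASs in its last exon, shown here as 30 bases of the mm9 genome that end at the PAS, in the order of transcription and with AATAAA or ATTAAA, the letters of the polyadenylation signal, in capitals.
Rpl15 PAS 1, chr14:19101473-19101502, minus strand: catatccAATAAAcaatttaggacagtcat
Rpl15 PAS 2, chr14:19101367-19101396, minus strand: tgcaataattgaaaactgcaggtgatggca
Rpl15 PAS 3, chr14:19100479-19100508, minus strand: atgcttttATTAAAttggttttcctttgga
Rpl15 PAS 4, chr14:19100337-19100366, minus strand: ctaaagtAATAAAtgtcttaaacaagtgga
The first PAS held 40.2% of the reads of Rpl15 in NT, 51.8% in AS, 52.6% at RC4 and 68.4% at RC8 (95% interval 67.2% to 69.6%). The second PAS, the only one of the 4 without the signal letters in this window, held 29.2%, 17.0%, 24.3% and 9.43%. The most distal PAS held 24.1% in NT, 27.0% in AS, 20.1% at RC4 and 20.1% at RC8. The share of the first PAS was therefore above NT in all 3 libraries, by 11.6, 12.6 and 28.1 points against the NT value of the same comparison. Counting errors were below 1 point, but they treat the shares assigned by the authors' software as counted reads. Errors in assigning reads to neighboring PASs are not covered. Rpl15 also has 16 near-identical copies of its 3′ end elsewhere in the genome, and their effect on these shares was not tested.

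Rpl4 and Rpl14 also had many reads and a change of at least 10 points in RC8. Each has 2 PASs, listed here in the order of transcription with mm9 coordinates.
Rpl4 PAS 1, chr9:64026251-64026280, plus strand: aactATTAAAaattgttaaattccagagag
Rpl4 PAS 2, chr9:64026362-64026391, plus strand: gccccttgaaattaaccttttgaagaacaa
Rpl14 PAS 1, chr9:120483456-120483485, plus strand: agaagaccccagcccagaaagcacctgctc
Rpl14 PAS 2, chr9:120483719-120483748, plus strand: gttaaccctaacaAATAAAtttcccaccaa
For Rpl4, the first PAS held 63.2% in NT, 58.9% in AS, 68.9% at RC4 and 46.5% at RC8. The upstream PAS thus had a larger share in RC4 than in NT and a smaller one in AS and RC8.
The first PAS of Rpl14 lies in the last exon, and it held 73.7% in NT, 80.8% in AS, 79.2% at RC4 and 84.6% at RC8. In Rpl14 and Rpl15 the share of the first PAS was above NT in all 3 libraries, unlike in Rpl4.

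**Figure D4:**
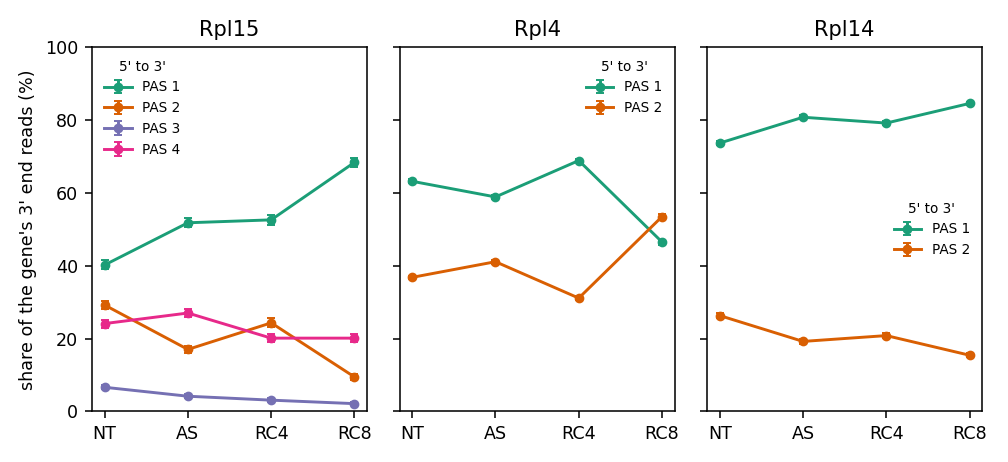
Share of a gene's reads in percent (y axis) at each PAS in NT, AS, RC4 and RC8 (x axis) for Rpl15, Rpl4 and Rpl14, with PASs numbered in the order of transcription and bars as 95% Wilson intervals, 1 library per condition. NT is that of the AS comparison. The first PAS of Rpl15 is at 40.2% in NT and 68.4% in RC8, and the lines of Rpl4 cross in RC8.

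Other genes with a change of at least 10 points had fewer reads. Rpl11, with 1704 reads in NT, had its most distal PAS at 45.8% in NT and 59.9% in AS (57.6% to 62.2%). Its most upstream PAS held 38.3% in NT and 48.9% in RC4. The upstream one of 2 PASs of Rpl17 held 50.7% in NT, 60.8% in AS, 43.6% at RC4 and 63.8% at RC8. Rps23, with 555 reads in NT, had 78.1% at its upstream PAS in NT and 88.1% in AS. Rpl7l1 had a PAS in its last exon with 39.2% in NT and 25.9% in RC8.

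Rpl23a and Rps13 had PASs listed in introns. An intronic PAS of Rpl23a held 40.1% in NT, 37.4% in AS, 34.7% at RC4 and 29% at RC8. The intronic PAS of Rps13 held 33.1%, 37.2%, 28.1% and 13.1% (8.55% to 19.6%) in the same order. In both genes the intronic share was lowest in RC8, where the total reads of both genes were also lowest.

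Ribosomal protein genes had far more reads assigned upstream of the last exon than other genes. In NT, 19.4% of their reads were at PASs listed in an intron, internal exon or first exon, compared with 8.11% for all genes. The share was 20.3% in AS, 19.7% at RC4 and 21.8% at RC8, where all genes had 8.23%, 9.41% and 8.28%. Introns alone took 11.3% in NT, compared with 5.93% for all genes. The genes Rps19, Rps21 and Rps3 made up 54.8% of these reads in NT. All reads of Rps19 and Rps21 and 90% of the reads of Rps3 were at such sites, and for 13 genes the share was above 50%.

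**Figure D5:**
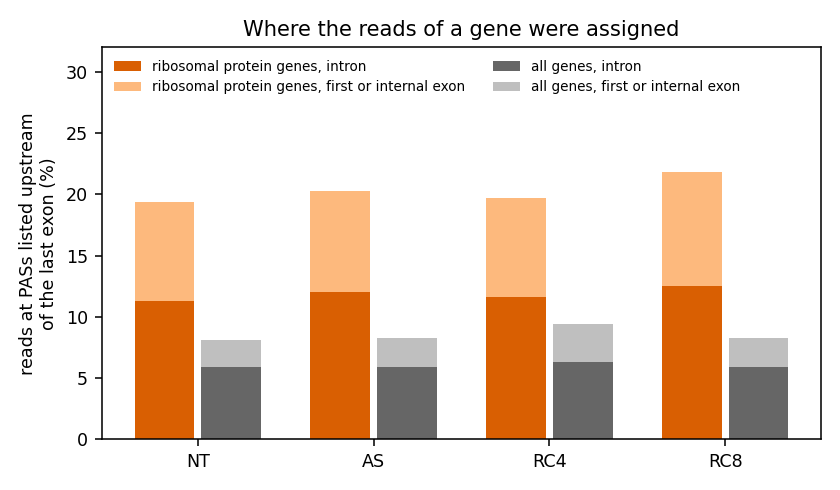
Percent of reads (y axis) at PASs listed upstream of the last exon in NT, AS, RC4 and RC8 (x axis), for ribosomal protein genes (orange) and all genes (gray), with introns as the dark part of a bar, 1 library per condition. The ribosomal protein genes are at 19.4% to 21.8% and all genes at 8.11% to 9.41%.

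The sequences at these upstream sites were unlike those of other genes. AATAAA or ATTAAA was found within 40 bases upstream of 3 of the 26 intronic PASs of ribosomal protein genes (11.5%), compared with 53.1% of the intronic PASs of all genes. For PASs in internal or first exons, it was 0 of 14 compared with 13.6%. In last exons, by contrast, the shares were 51.2% and 52.9%. A genomic A tract just downstream is a place where the primer can bind inside a transcript. It was found at 1 of the 26 intronic PASs of ribosomal protein genes (3.85%), compared with 16.2% for all genes. For internal or first exons, it was 0 of 14 compared with 16.1%. Over PASs of every location, the shares were 4.24% and 8.32%.

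Moreover, 7 of the 26 intronic PASs (26.9%) were placed exactly at the last base of an annotated intron, compared with 10 of 2109 (0.474%) in the other genes. They are shown with mm9 coordinates and with the final AG of the intron in capitals, the letters in which most introns end.
Rpl23a, chr11:77995096-77995125, minus strand: actccattttcctctcccatctctccctAG
Rpl23a, chr11:77994726-77994755, minus strand: tctaactctgaggcttccttctccacacAG
Rpl28, chr7:4745636-4745665, plus strand: atggactgattcctaggctttccttaccAG
Rpl3, chr15:79908857-79908886, minus strand: actgaccaatggctttctatgattccttAG
Rpl36, chr17:56753300-56753329, plus strand: gggttcgtgacctcggggctgtgctcgcAG
Rps13, chr7:123476613-123476642, minus strand: gtgtgtgcttgagtgtgtttctcttttcAG
Rps21, chr2:179992463-179992492, plus strand: attaaacgcactgtgcatctctttacccAG
The Rps21 site held 62.1% of the reads of its gene in NT, 62.6% in AS, 58.7% at RC4 and 66.4% at RC8. The site of Rpl3 held 11.7%, 11.8%, 9.32% and 10.3%. Of the 40 upstream sites of ribosomal protein genes, 21 lie in the last exon of at least 1 transcript in GENCODE vM1, among them the sites of Rps19, Rps21 and Rps3. Whether transcripts end at these sites was not tested.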

How the data were processed

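QuantSeq FWD reads of NT, AS, RC4 and RC8 cells were used, 1 library per condition. QuantSeq REV libraries were not analysed here. The authors trimmed reads with bbmap, mapped them to mm9 with STAR (2.5.2a) and assigned them to PolyA_DB v3 PASs with MAAPER. They deposited raw read counts per gene in 2 columns per library, which were added here, and the fraction of a gene's reads at each PAS. The lowest count of a listed gene was 50. The deposited P values, RLD and RED scores compare conditions and were not used.

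The members and gene lists were chosen with earlier results of these data known. Reads were scaled to the median gene of each comparison, to reads per 1 M reads on genes (RPM) or by TMM (edgeR 4.0.16). A fold of 1.5, a log2 change of 0.32 and changes of 10 points in a PAS share were counted over all genes. The counting error of a log2 change came from the Poisson variance of both read numbers, and intervals of shares were 95% Wilson intervals. Steps were tested on simulated data in which few genes changed, as many up as down, with counting noise only. A shift of the median gene in RPM as in RC4 was not simulated. Named genes were the 5 highest and 5 lowest per comparison with at least 200 reads in both libraries, genes with a PAS change of 10 points, paralogues and a short list of genes with known roles. The genes past 1.5-fold, those at intron ends and those with most upstream reads were named after their values were seen. Copies were found with blastn (2.17.0). Some genes are not reported here.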

Additional observations from a re-analysis of the deposited data

Results flagged for a closer look

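The direction of the ribosomal protein genes relative to the median gene was opposite between libraries. Their median log2 change was 0.119 in AS and 0.359 in RC4 but −0.119 in RC8. Each of 7 genes was higher by at least 0.32 on the log2 scale in RC4 and lower by at least as much in RC8 (8.64%), compared with 209 of the 9972 genes listed in both comparisons. In RPM, 0 of the 81 genes and 52 of all genes did so. With TMM, it was 6 of the 81 genes (7.41%), compared with 1.93% of all genes. With scaling to the upper quartile of read numbers, it was 2 (2.47%), compared with 1.34%. The 7 genes were Rpl4 (0.498 and −0.897), Rpl34 (0.377 and −0.515), Rpl26 (0.364 and −0.506), Rpl13a (0.384 and −0.402), Rps6 (0.342 and −0.394), Rpl35 (0.396 and −0.327) and Rps9 (0.379 and −0.323). Rpl34 was measured with 116 reads in NT, 124 at RC4 and 83 at RC8. With 1 library per condition the differences between RC4 and RC8 were not tested, and both comparisons use the same NT library. In RPM, the median of the 81 genes was 0.06 at RC4 and −0.11 at RC8.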

How the results depend on the processing

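With 1 library per condition, no library could be left out. No paired analysis was possible because each condition has 1 library and the labels give no replicate numbers. Of 111 alternative values for the shares, medians and counts of ribosomal protein genes, 31 moved and 80 did not. A share that did not move stayed within its counting interval, and a count within 1.5 times. A median that did not move stayed within an interval taken from the spread over the 81 genes, which are not replicates. Shares and counts cannot be negative, so only the medians could change direction, and no median did. With upper quartile scaling in place of the median gene, the median of the 81 genes was 0.171 in AS and 0.301 in RC4, where the median gene was at 0.05 and −0.06. With genes present in all 3 comparisons, the share of reads was 5.22% in NT and 5.57% in AS, 5.49% in RC4, and 5.23% in NT and 4.93% in RC8. At a log2 change of 0.32 in place of a fold of 1.5, 4 genes were higher and 1 lower in AS, 47 higher and 1 lower in RC4, and 2 higher and 18 lower in RC8. In RPM, at the same threshold, 0 were higher and 2 lower in AS, and 1 was higher and 3 were lower in RC4. With upper quartile scaling, 0 were lower in AS and 31 were higher in RC4. The scalings at this threshold were added after the values were seen. At a fold of 2, none was higher in RC4, compared with 6.38% of all genes, and 2 were lower in RC8 (Rps13 and Rpl17; 2.47%), compared with 3.59%. In RPM, 0 genes were higher and 1 was lower (Rpl7l1) by 1.5-fold in RC4. With only genes of at least 200 reads, whose median gene is another, 0 were higher in RC4. A PAS share moved by 5 points in 10, 15 and 21 genes in AS, RC4 and RC8, and by 20 points in 0, 0 and 2 genes, compared with 2.02%, 7.34% and 4.97% of all genes. With only PASs in last or single exons, 5 of 25 genes moved by 10 points in AS. This was a larger share than the 14.6% of all genes, unlike with all PASs (8.70% and 15.3%). In RC4 and RC8, 3 of 24 (12.5%) and 5 of 23 genes (21.7%) did so, compared with 27.7% and 26.9% of all genes. Of 360 values of 30 named genes, 9 changed sign, none of them past 1.5-fold. Rpl34, Rpl28, Rps13 and Rps23 had fewer than 1000 reads in NT, which limits the precision of their values, and all 4 have near-identical copies of their 3′ ends.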
